A study of Mus musculus with 16 samples.

Results

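The response to X-rays of B16-BL6 melanomas that had been given 5-aminolevulinic acid (ALA) was read from 8 of the 16 tumour arrays of the series, chosen by their titles: 4 tumours given ALA and fractionated X-rays against 4 tumours given ALA alone. B16-BL6 is a mouse melanoma line of the C57BL/6 strain that is known for its invasive growth. The tumours were grown in male C57BL/6J mice aged 8 weeks. ALA was given locally at 50 mg per kg, ahead of the irradiation in the combined group. The other 8 arrays were 4 tumours with neither treatment (control) and 4 tumours irradiated without ALA (X-ray). The X-ray dose and the time of sampling are not given in the sources used here. Every group carried the same transplanted line in immunocompetent hosts, and each array held total RNA of 1 whole tumour preparation, host cells included. The labels do not state that the 4 preparations of a group came from separate mice, so p-values measure the spread between these preparations. In such mixed samples, fewer cells of a type and less RNA per cell cannot be told apart.

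ALA is the first committed precursor of heme. Cells given ALA build up protoporphyrin IX, the last intermediate before iron is inserted by ferrochelatase, and tumour cells tend to retain it, which is the basis of its use as a photosensitizer and as a candidate radiosensitizer. Ionizing radiation breaks DNA and activates p53, which induces the cell cycle inhibitor p21 and other targets, while cells stop entering S phase and mitosis. DNA that leaks into the cytoplasm can be sensed by cGAS and STING and by RIG-I-like receptors on RNA, which induce type I interferons, and dying tumour cells draw in macrophages and lymphocytes.

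The arrays showed 3 large movements with irradiation in ALA-treated tumours. Many genes of the immune system rose by large factors: interferon-stimulated genes, antigen presentation genes and macrophage genes, some of them in more than 1 of the lists used here, with the chemokine gene Ccl8 at 78.7-fold. That fold is over the ALA tumours, in which Ccl8 differed from control tumours by -2.48 (log2, adjusted p = 0.795 by limma). Genes of DNA replication and mitosis, of sterol synthesis and of ribosome assembly fell by smaller factors, with list medians from -0.61 to -1.01 on the log2 scale. The p53 targets Cdkn1a and Ccng1 rose 3.96-fold and 3.37-fold, and 3 of 5 red cell genes tested, 2 of them hemoglobin genes, fell.

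A gene entered the test when 4 or more of the 16 arrays, from any group, read its probe well above background, so a gene could enter through the irradiated tumours alone. This entry can raise the share of rises among the tested genes of a list. Of 15408 genes tested, 3715 passed an adjusted p of 0.05, 1651 of them higher (10.7% of the genes tested) and 2064 lower (13.4%). All adjusted p-values are from limma fitted on the 4 groups of the 16 arrays with Benjamini-Hochberg adjustment, unless another setting is named. This fit pooled the spread within all 4 groups, control and X-ray tumours included. At least 2-fold changes were found for 1000 of the higher and 384 of the lower genes, and 8-fold changes for 236 and 7. Of the 15408 genes tested, 1432 were higher and 1764 lower without overlap between the 4 ALA and the 4 ALA plus X-ray arrays. The median of all genes tested was -0.13 on the log2 scale. The split between higher and lower depended on the scaling: with each array scaled to its median in place of its 75th percentile, 1898 genes passed, 1362 higher and 536 lower. With the fit limited to the 8 arrays compared, 1590 genes passed, 953 higher and 637 lower. Folds of dim genes depended on the background correction: with normexp, which adds an offset of 50, the fold was over 1.5 times smaller for 28 of the 89 genes named here that passed, and over 1.5 times larger for 0. Of the 3715 genes, 3296 (88.7%) differed in the same direction between the ALA plus X-ray and the ALA tumour of every replicate number. The genes were called on these same arrays, and same-numbered arrays were not shown to be pairs. That share therefore describes the calls and is no separate test of them.

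The 4 ALA plus X-ray tumours were not alike. Tumour 1 lay nearest to the tumours given ALA alone (r over all genes tested 0.958 to 0.976, against 0.884 to 0.947 for tumours 2 to 4), and it showed the smallest of the 4 differences for 65.7% of the genes that passed. Without it 5821 genes passed, and without tumour 2 or tumour 3 of that group 2362 and 2220. Without ALA tumour 1 or 4 the counts were 2432 and 2164. Overall brightness, taken as the array's 75th percentile of processed signal, was also higher on the ALA plus X-ray arrays (366 to 521) than on the ALA arrays (217 to 331; exact permutation test, two-sided, p = 0.0286, the smallest that 4 against 4 arrays allow). Each group kept its own place on every slide, and place and treatment cannot be told apart.

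Cdkn1a, which encodes the cyclin-dependent kinase inhibitor p21, is the best known target of p53. Its relative level, the log2 of the processed signal over the 75th percentile of the array, was 1.34, 1.54, 1.70 and 1.41 in the 4 ALA tumours and 3.62, 3.50, 3.79 and 3.02 in the 4 ALA plus X-ray tumours. The groups did not overlap, and tumour 1 was as high as the others. The difference was 1.99 ± 0.21 (SE, log2; adjusted p = 0.000616). Ccng1, the gene of cyclin G1, another direct p53 target, was at 1.85, 2.67, 2.07 and 2.03 in ALA tumours and at 3.71, 3.70, 5.00 and 3.23 after ALA plus X-ray, again without overlap (1.75 ± 0.30, adjusted p = 0.00301).

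Of 35 p53 targets tested (37 in the list), 18 rose and 2 fell (4 without ALA tumour 2), with a median of 0.68. Trp53inp1, which promotes p53 phosphorylation (1.79, adjusted p = 0.00315), Ak1, an adenylate kinase (1.59, adjusted p = 0.00397), and Phlda3, an inhibitor of Akt (1.20, adjusted p = 0.00505), rose in all 4 replicate pairs. Mdm2, the ubiquitin ligase that degrades p53, rose by 0.68 (SE 0.18, adjusted p = 0.0194). Eda2r, a death receptor of the TNF receptor family, was not well above background on any ALA array and was at least 4.24-fold higher after ALA plus X-ray (adjusted p = 0.00291). Tigar, which lowers glycolytic flux, fell by 0.72 (adjusted p = 0.00820), and Gdf15, a stress cytokine, fell by 1.14 (adjusted p = 0.0382). With the 8 arrays alone 11 p53 targets rose, and Mdm2, Tigar and Gdf15 no longer passed. Mdm2 also did not pass without ALA tumour 4, nor Gdf15 without ALA tumours 3 or 4 or ALA plus X-ray tumours 2, 3 or 4. Eda2r did not pass with normexp background correction (0.26, log2).

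X-rays without ALA raised 5 p53 targets and lowered 0 (median 0.39). Cdkn1a was at 1.85, 2.40, 1.92 and 1.94 in control tumours and at 4.13, 3.50, 3.13 and 3.40 in X-ray tumours (1.52, adjusted p = 0.0143). The X-ray effect on Cdkn1a with ALA exceeded that without ALA by 0.47 (95% interval -0.17 to 1.11, interaction adjusted p = 0.404). None of the 35 p53 targets passed the test of that difference, in which 139 of the 15408 genes (0.902%) passed higher with ALA and 51 (0.331%) lower.

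**Figure D1:**
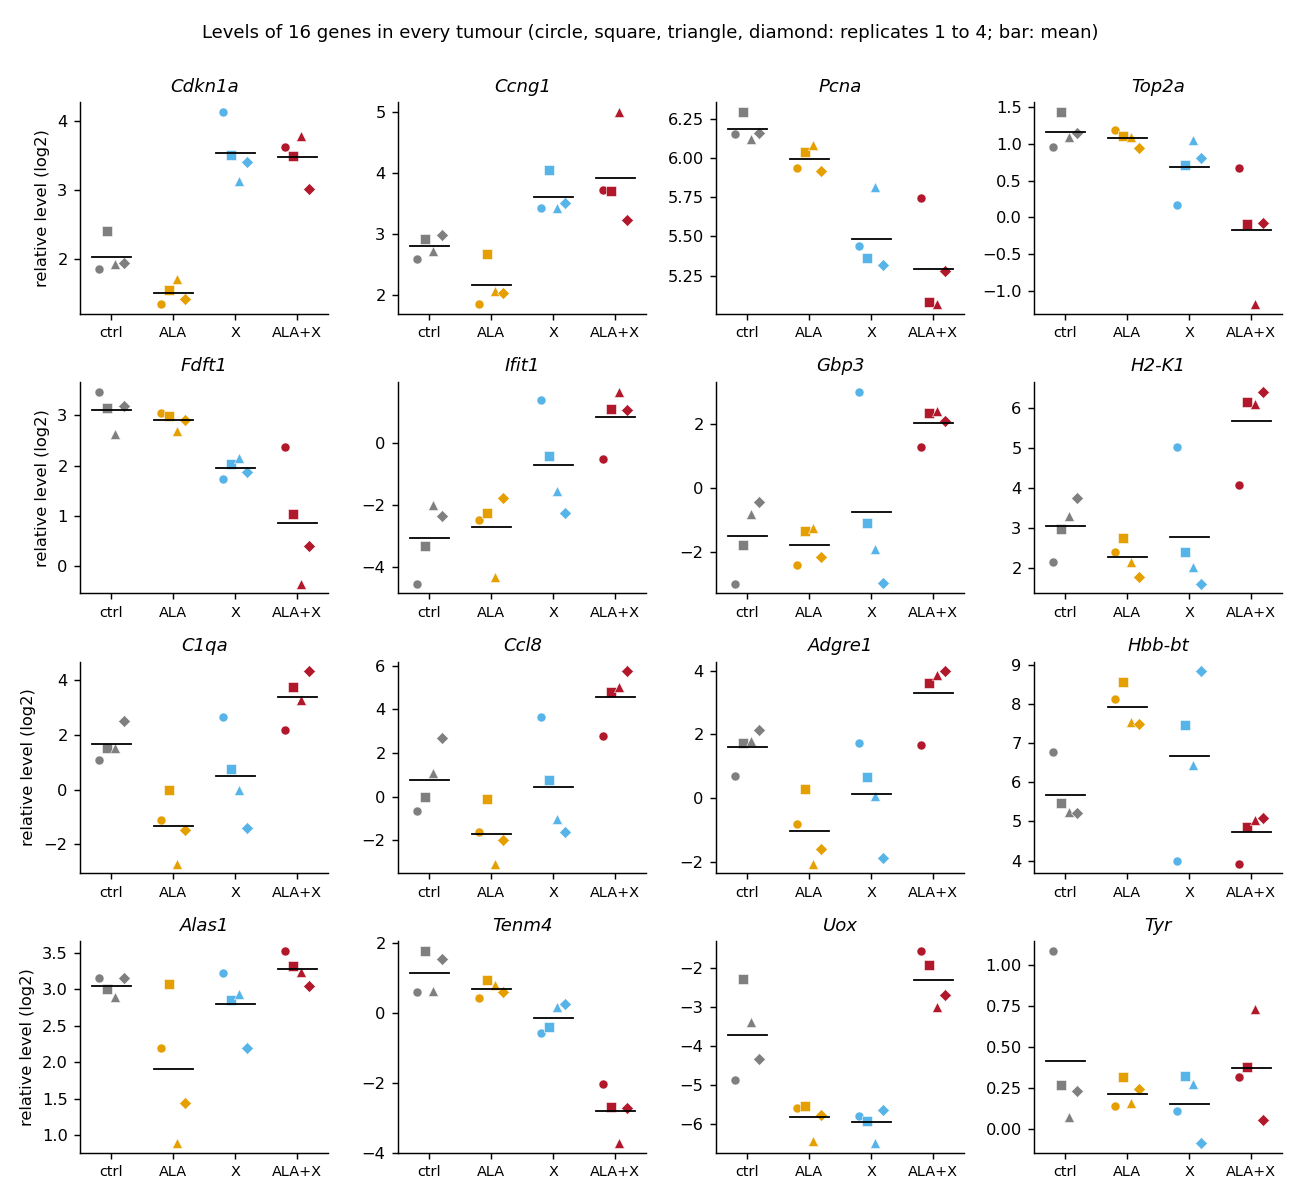
Relative level (log2 of processed signal over the array's 75th percentile) of 16 genes in the 4 tumours of each of the 4 groups, 1 symbol per tumour and a bar at the group mean. Cdkn1a and Ccng1 are higher in both irradiated groups, Ifit1 to Adgre1 are higher in each ALA plus X-ray tumour than in any ALA tumour, X-ray tumour 1 is the highest X-ray tumour for these 6 genes, and Tyr overlaps between all groups.

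Genes that carry cells through S phase fell. Cdc6, which loads the replicative helicase onto origins, was at 0.19, 0.36, 0.22 and 0.23 in ALA tumours and at -0.20, -0.99, -2.07 and -0.74 after ALA plus X-ray (a fall of 1.25 ± 0.28, adjusted p = 0.00842). Tumour 1 stood just below the ALA tumours and tumour 3 lay far below them. Pcna, the sliding clamp of DNA polymerase, was at 5.93, 6.04, 6.08 and 5.92 against 5.75, 5.09, 5.07 and 5.28 (fell by 0.70, adjusted p = 0.00731), and Ung, the uracil glycosylase, fell by 0.88 (adjusted p = 0.00249). Of 46 genes of G1/S and DNA replication, 37 fell and 0 rose, and each of the 46 had a negative difference, with a median of -0.88. The median over the list was -0.12 between the tumours of replicate 1 and -1.09, -1.38 and -0.69 between those of replicates 2 to 4. The count was sensitive to the spread and the scale: 10 genes fell with median scaling and 5 with the 8 arrays alone, at medians of -0.83 and -0.88. It was 22 without ALA tumour 2, 22 without ALA plus X-ray tumour 2 and 23 without ALA plus X-ray tumour 3. Cdc6 did not pass with the 8 arrays alone, nor Pcna with median scaling.

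Genes of mitosis moved the same way. Top2a, the topoisomerase that untangles sister chromosomes, was at 1.19, 1.10, 1.09 and 0.94 in ALA tumours and at 0.67, -0.08, -1.18 and -0.08 after ALA plus X-ray, without overlap (fell by 1.25 ± 0.29, adjusted p = 0.0107). Cdk1, the mitotic kinase, fell by 1.10 (adjusted p = 0.00855), though tumour 1 at 3.18 overlapped the lowest ALA tumour at 3.17. The proliferation marker Mki67 was at 5.00, 5.21, 4.87 and 4.96 against 5.01, 3.74, 3.02 and 4.54 and did not pass (-0.93, adjusted p = 0.0524), with tumour 1 level with the ALA group. Of 39 mitosis and G2/M genes 29 fell and 0 rose (median -0.80). The count was 8 with median scaling and 7 with the 8 arrays alone, where Top2a and Cdk1 did not pass. It was 14, 18, 19 and 16 without ALA tumours 1 to 4, and 13, 13 and 19 without ALA plus X-ray tumours 2 to 4.

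Of 39 DNA repair genes 23 fell and 0 rose (median -0.60), among them Mre11a, the nuclease of the double-strand break sensor, which fell by 0.85 (adjusted p = 0.00595), Fancd2 of the crosslink repair pathway, which fell by 0.78 (adjusted p = 0.0118), and Brca2, a recombination mediator, which fell by 0.91 (adjusted p = 0.0162). The repair count was 3 with median scaling and 3 with the 8 arrays alone. Brca2 did not pass in either, nor Fancd2 with median scaling. It was 15, 13 and 13 without ALA tumours 1, 2 and 4, and 10, 10 and 13 without ALA plus X-ray tumours 2 to 4.

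Promoter windows of the replication and mitosis lists are given as background on how such genes are known to be controlled. Each window of RefSeq runs from 250 bases before to 50 bases after a transcript start (assembly GRCm38.p6), and each fragment printed lies before the start, read along the gene with the letters of 1 motif in capitals. Replication genes are known targets of E2F factors, and the letters TTTCCCGC or TTTGGCGC, searched on both strands, were in 13 of 45 windows of the replication list (28.9%), against 2.73% of the 12902 windows of genes tested. The CHR element TTTGAA of genes expressed late in the cell cycle was in 24 of 34 windows of the mitosis list (70.6%) against 12.2%, and CCAAT was in 79.4% against 37.6%. Mcm6 and Mcm5, subunits of the replicative helicase, and Cdc20, the activator of the anaphase-promoting complex, were chosen after their values were seen. They fell by 0.99 (adjusted p = 0.0151), 1.07 (adjusted p = 0.0258) and 0.68 (adjusted p = 0.0282). None of the 3 passed with median scaling or with the 8 arrays alone. Mcm5 did not pass without ALA tumours 1, 2 or 4 or ALA plus X-ray tumour 2, and Cdc20 did not pass when any 1 of these 4 was left out, nor without ALA plus X-ray tumours 3 and 4.
Mcm6, chr1:128359725-128359835, minus strand: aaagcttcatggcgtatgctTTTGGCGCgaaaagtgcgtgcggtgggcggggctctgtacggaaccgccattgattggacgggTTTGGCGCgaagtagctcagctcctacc
Mcm5, chr8:75109340-75109387, plus strand: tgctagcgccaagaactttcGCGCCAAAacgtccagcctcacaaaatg
Cdc20, chr4:118437344-118437391, minus strand: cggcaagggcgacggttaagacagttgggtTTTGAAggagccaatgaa
The Mcm6 fragment holds the E2F letters at 2 places, and the Mcm5 fragment holds them once, as the reverse complement GCGCCAAA. In the Cdc20 fragment the capitals mark the CHR letters, and the CCAAT near its end is left in lower case.

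Sterol synthesis genes fell as a block. Fdft1, the squalene synthase that commits the pathway to sterols, was at 3.04, 2.99, 2.69 and 2.90 in ALA tumours and at 2.37, 1.04, -0.34 and 0.41 after ALA plus X-ray (fell by 2.04 ± 0.40, adjusted p = 0.00541). No ALA plus X-ray tumour reached the ALA range, and tumour 1 came nearest. Insig1, which holds the sterol sensor in the endoplasmic reticulum, fell by 1.77 (adjusted p = 0.00555), Hmgcs1, the synthase before HMG-CoA reductase, by 1.12 (adjusted p = 0.00765) and Sqle, the squalene epoxidase, by 1.06 (adjusted p = 0.00222). Of 21 genes tested 18 fell, 0 rose and 21 had negative differences (median -1.01). The median was -0.08 between the replicate 1 tumours and -1.33, -1.45 and -1.03 in the other pairs. With median scaling 10 fell, and with the 8 arrays alone 7. Sterol genes are known targets of SREBP2, and the letters TCACNCCAC of its element, searched on both strands, were in 1 of 17 windows of the list (5.88%, against 1.22% of windows of genes tested), that of Hmgcs1.
Hmgcs1, chr13:119690184-119690252, plus strand: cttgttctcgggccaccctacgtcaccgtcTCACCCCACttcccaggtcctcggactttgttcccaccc

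Of 22 ribosome biogenesis genes 12 fell (median -0.61), among them Nolc1, a nucleolar chaperone, which fell by 1.38 (adjusted p = 0.00669), and Myc, which drives the programme and fell by 0.79 (adjusted p = 0.00783). This count was 3 with median scaling and 2 with the 8 arrays alone. It was 7 and 6 without ALA tumours 2 and 4, 19 without ALA plus X-ray tumour 1, and 7 each without ALA plus X-ray tumours 2 and 3. In the list of unfolded protein and ATF4 stress 4 of 25 genes fell and 2 rose, shares near the 13.4% and 10.7% of all genes, and 8 fell without ALA plus X-ray tumour 1. The largest falls in it were of Asns, the asparagine synthetase, by 1.26 (adjusted p = 0.00251), Psat1, an enzyme of serine synthesis, by 1.06 (adjusted p = 0.00319) and Phgdh, the first enzyme of that route, by 1.00 (adjusted p = 0.00499).

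Without ALA the same lists had negative medians in X-ray against control: -0.69 for replication with 11 genes lower, -0.39 for mitosis with 1 lower and -0.72 for sterol synthesis with 1 lower, where 1.38% of all genes passed lower. No gene of the 3 lists passed the test of a difference between the X-ray effects with and without ALA. Of all genes, 0.902% passed it higher with ALA and 0.331% lower, so few passes could be seen in lists of this size. The median differences were -0.18 for replication, -0.44 for mitosis and -0.35 for sterol synthesis. Missing the threshold does not show that both effects were alike. Pcna had a difference near 0 and fell by 0.70 in both settings (interaction adjusted p = 0.999, 95% interval of the difference -0.45 to 0.45).

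The interferon-stimulated genes rose together. Ifit1, which binds foreign RNA that lacks a methylated cap, was at -2.48, -2.25, -4.31 and -1.78 in ALA tumours and at -0.50, 1.09, 1.66 and 1.08 after ALA plus X-ray (3.54 ± 0.79, 11.6-fold, adjusted p = 0.00859). The lowest irradiated tumour, tumour 1, was above the highest ALA tumour. Oas1a, an oligoadenylate synthase that activates RNase L, rose 6.17-fold (adjusted p = 0.00562), and Ifih1, the RNA sensor MDA5, 5.33-fold (adjusted p = 0.00669). Trim30a, an interferon-induced ubiquitin ligase, rose 6.99-fold (adjusted p = 0.00542), and Zbp1, a sensor of Z-form nucleic acids, 24.0-fold (adjusted p = 0.0200; not passed without ALA tumour 4). Of 39 genes tested 32 rose and 0 fell, where 10.7% of all genes rose, and the median difference was 2.13, or 1.84 with dim genes held at their bounds. The medians of the 4 replicate pairs were 1.23, 1.73, 3.13 and 1.98. The count was 30 with median scaling and 30 with the 8 arrays alone. With normexp the differences were 2.29 for Ifit1, 1.75 for Ifih1, 1.81 for Trim30a and 3.21 for Zbp1 (log2), and all 4 passed.

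Of the GTPases that interferon gamma induces to attack membranes of vacuoles, 12 of 15 tested rose (median 3.25). Only 4 GTPase genes were well above background on all 16 arrays, and these 4 rose in a fit limited to such genes (median 3.15). Gbp3 was at -2.40, -1.34, -1.24 and -2.17 in ALA tumours and at 1.29, 2.33, 2.41 and 2.10 after ALA plus X-ray (14.1-fold, adjusted p = 0.0140). Tgtp1 rose 24.7-fold (adjusted p = 0.0251) and Irgm2, a regulator of these GTPases, 8.22-fold (adjusted p = 0.0106). Gbp7 was dim on every ALA array and exceeded its level there at least 7.74-fold (adjusted p = 0.00740). The count of 12 became 6 without ALA tumour 4, and 7 and 5 without ALA plus X-ray tumours 2 and 3. Tgtp1 did not pass without ALA tumours 1 or 4 or ALA plus X-ray tumours 2 or 3, and Gbp7 did not pass with normexp background correction (0.72, log2), where Gbp3 was at 3.01 and Tgtp1 at 3.84.

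The promoters of interferon-stimulated genes are known to hold the ISRE, here searched on both strands as GAAA, 2 bases of any kind and GAAA. It was in 14 of 36 windows of the interferon list (38.9%) and in 8 of 10 windows of the GTPase list (80.0%), against 2.97% of the windows of genes tested. For the members that rose it was in 14 of 28 (50.0%) and 7 of 9 windows (77.8%). The lists were made of known interferon-induced genes, so a share above that of all genes came with the choice of list. Fragments are shown for Ifit1 and Tgtp1, and for Isg15, a ubiquitin-like modifier, and Rsad2, the antiviral enzyme viperin, both chosen after their values were seen. Isg15 rose 6.69-fold (adjusted p = 0.0131) and Rsad2 3.22-fold (adjusted p = 0.0134).
Ifit1, chr19:34640765-34640833, plus strand: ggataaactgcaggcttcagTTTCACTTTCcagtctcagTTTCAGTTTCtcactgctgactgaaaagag
Isg15, chr4:156200855-156200916, minus strand: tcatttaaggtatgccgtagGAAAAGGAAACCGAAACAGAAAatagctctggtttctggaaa
Rsad2, chr12:26456543-26456592, minus strand: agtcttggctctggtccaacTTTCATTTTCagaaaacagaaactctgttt
Tgtp1, chr11:48992294-48992343, minus strand: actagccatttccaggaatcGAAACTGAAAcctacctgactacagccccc
In Ifit1 the capitals mark 2 separate matches and in Isg15 a run of 3 overlapping ones. Matches in Ifit1 and Rsad2 are written as the reverse complement.

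Antigen presentation rose with the interferon genes. H2-K1, the heavy chain of a classical MHC class I molecule, was at 2.40, 2.73, 2.15 and 1.78 in ALA tumours and at 4.07, 6.13, 6.09 and 6.40 after ALA plus X-ray (10.6-fold, adjusted p = 0.00522). Tumour 1 was the lowest of the irradiated tumours and still above every ALA tumour. B16 melanomas are known for low surface MHC class I. H2-Q4 rose 6.65-fold (adjusted p = 0.00714), H2-T23, the ligand of the NK receptor NKG2A, 5.62-fold (adjusted p = 0.00843), and H2-M3, which presents formylated peptides, 3.09-fold (adjusted p = 0.00858). These H2 genes are close in sequence to each other and their probes can share signal. Of 20 genes of the class I pathway tested 13 rose and 0 fell (median 1.29).

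Of 11 class II genes tested 8 rose (median 2.88). H2-Ab1, the beta chain of I-A, was at -0.60, 0.26, -1.12 and -2.37 in ALA tumours and at 1.67, 3.86, 3.35 and 4.26 after ALA plus X-ray (18.9-fold, adjusted p = 0.0150). Cd74, the invariant chain, rose 14.9-fold (adjusted p = 0.0203) and H2-DMb1, of the peptide editor, 4.01-fold (adjusted p = 0.00794). The class II count was 4 without ALA tumour 4, and 4 and 5 without ALA plus X-ray tumours 2 and 4, and Cd74 did not pass when any 1 of these 3 tumours was left out. With normexp the difference of Cd74 was 3.23 (log2).

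Among the genes with the largest rises without overlap, Ccl8 was joined by other leukocyte genes. Wfdc17, a secreted protein of activated macrophages, rose 29.1-fold (adjusted p = 0.00201), and Fgl2, a membrane prothrombinase of macrophages, was at least 19.9-fold higher (adjusted p = 0.00533). With normexp the differences were 4.11 and 1.88 (log2), the latter below that bound.

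Macrophage markers rose in all 4 irradiated tumours. Adgre1, the gene of the macrophage marker F4/80, was at -0.80, 0.27, -2.05 and -1.60 in ALA tumours and at 1.67, 3.61, 3.88 and 3.98 after ALA plus X-ray (4.33 ± 0.72, 20.1-fold, adjusted p = 0.00257). C1qa, a chain of the complement component C1q that tissue macrophages make, was at -1.12, 0.00, -2.69 and -1.46 against 2.16, 3.73, 3.26 and 4.31 (25.7-fold, adjusted p = 0.00237). For both genes tumour 1 was the lowest irradiated tumour and lay above every ALA tumour. With normexp the difference of C1qa was 3.90 (log2). Of 15 macrophage and monocyte markers 14 rose and 0 fell (median 3.30), and the medians of the replicate pairs were 1.61, 2.77, 4.49 and 4.66.

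Ligands, receptors and effectors of myeloid cells rose with these markers. Ccl8, a chemokine for monocytes, was at -1.64, -0.12, -3.08 and -2.00 in ALA tumours and at 2.78, 4.82, 5.01 and 5.75 after ALA plus X-ray (6.30 ± 1.07, adjusted p = 0.00282). Ccl5, a chemokine for T cells and monocytes, was at -0.21, 0.23, -0.12 and -0.07 against 2.67, 3.56, 4.32 and 4.11 (13.1-fold, adjusted p = 0.00249). Both were higher in every irradiated tumour than in any ALA tumour. Of 28 chemokine and receptor genes tested (37 in the list) 14 rose and 0 fell, among them Ccl7, another monocyte chemokine (7.51-fold, adjusted p = 0.0116). In a fit limited to genes well above background on all 16 arrays, 8 of 16 genes of this list rose. With normexp the differences were 5.37 for Ccl8 and 2.08 for Ccl7 (log2).

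Of 24 pattern recognition genes 15 rose and 0 fell. Tlr7, the endosomal receptor of single-stranded RNA, was dim on every ALA array and at least 12.3-fold higher (adjusted p = 0.000616), and Tlr2, the receptor of bacterial lipoproteins, rose 7.33-fold (adjusted p = 0.00319). Sting1, the adaptor of cytoplasmic DNA sensing, was at 1.75, 2.02, 1.84 and 1.54 in ALA tumours and at 2.80, 2.73, 3.15 and 3.03 after ALA plus X-ray (1.14 ± 0.18, adjusted p = 0.00237). Of 23 Fc receptor and phagocytosis genes 18 rose, with Trem2, a lipid receptor of macrophages, 17.7-fold (adjusted p = 0.00127) and Cd68, a lysosomal macrophage marker, 4.59-fold (adjusted p = 0.00201). Of 18 complement genes 14 rose, and of 22 lysosomal genes 11, with Ctss, the protease that cleaves the invariant chain, 19.3-fold (adjusted p = 0.00231). Checkpoint genes with a rise were 5 of 9 tested (15 in the list), among them Havcr2, which encodes TIM-3 (2.81-fold, adjusted p = 0.00595), and Vsir, which encodes VISTA (9.56-fold, adjusted p = 0.00740). Only 4 checkpoint genes were well above background on all 16 arrays, and 3 of them rose in a fit limited to such genes. With normexp the differences were 1.25 for Tlr7, below the bound given, 1.83 for Tlr2 and 1.91 for Vsir (log2), and all 3 passed.

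Of 22 inflammatory mediators 7 rose and 1 fell (median 0.79), and 11 rose without ALA plus X-ray tumour 1 (median 1.42). Vcam1, the endothelial adhesion molecule for leukocytes, rose 22.3-fold (adjusted p = 0.00444), Icam1 6.08-fold (adjusted p = 0.00646) and Spp1, osteopontin, 2.77-fold (adjusted p = 0.00518). With normexp the differences of Vcam1 and Icam1 were 1.82 and 1.78 (log2), and both passed. Il1b did not pass (1.39, adjusted p = 0.388), with -5.35 in tumour 1 and higher levels in the other 3.

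Markers of lymphocytes were near the detection limit. Of 25 T and NK markers 14 entered the test, which a gene could do through the ALA plus X-ray arrays alone, and 5 of them rose. Gzmb, the gene of granzyme B, was not well above background on any ALA array and was at least 8.28-fold higher (levels -2.88, -1.51, -2.69 and -0.22 after ALA plus X-ray, adjusted p = 0.0177). Nkg7, of cytotoxic granules, was higher by at least 13.7-fold (adjusted p = 0.0187). Both calls were lost without ALA plus X-ray tumour 4, and then 1 of the 14 genes rose, against 8 without ALA plus X-ray tumour 1, 3 without ALA tumours 1, 3 or 4 and 3 without ALA plus X-ray tumours 2 or 3. Gzmb did not pass with normexp background correction either (0.86, log2), where Nkg7 was at 1.63, below the bound given. Cd3e (0.13, adjusted p = 0.878) and Cd8a (0.93, adjusted p = 0.229) did not pass.

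The summed levels of marker lists gave the scale of these shifts. On the log2 scale the macrophage sum was 4.00 to 5.46 in ALA tumours and 7.27 to 8.23 after ALA plus X-ray, and the T and NK sum -0.59 to 0.27 against 0.43 to 3.19 (each exact permutation p = 0.0286, two-sided). The T and NK sum holds only the 14 markers that entered the test, which the ALA plus X-ray arrays alone could bring about. Its p is therefore no support for a shift. Only 1 T and NK marker was well above background on all 16 arrays, with a difference of -0.06. The fibroblast sum was 5.38 to 7.18 against 6.82 to 9.13 (exact permutation p = 0.0571) and the endothelial sum 5.04 to 5.56 against 5.21 to 5.88 (p = 0.371, exact). The skeletal muscle sum was 4.06 to 4.97 against 3.86 to 10.3, with tumour 3 the highest (exact permutation p = 0.143, two-sided). The macrophage sum rose with the immune gene lists, which share some of its markers, such as C1qa and Cd68. The part of any of these sums in the immune gene results was not tested. The control tumours had a macrophage sum of 6.03 to 6.88, between the ALA and the ALA plus X-ray tumours.

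**Figure D2:**
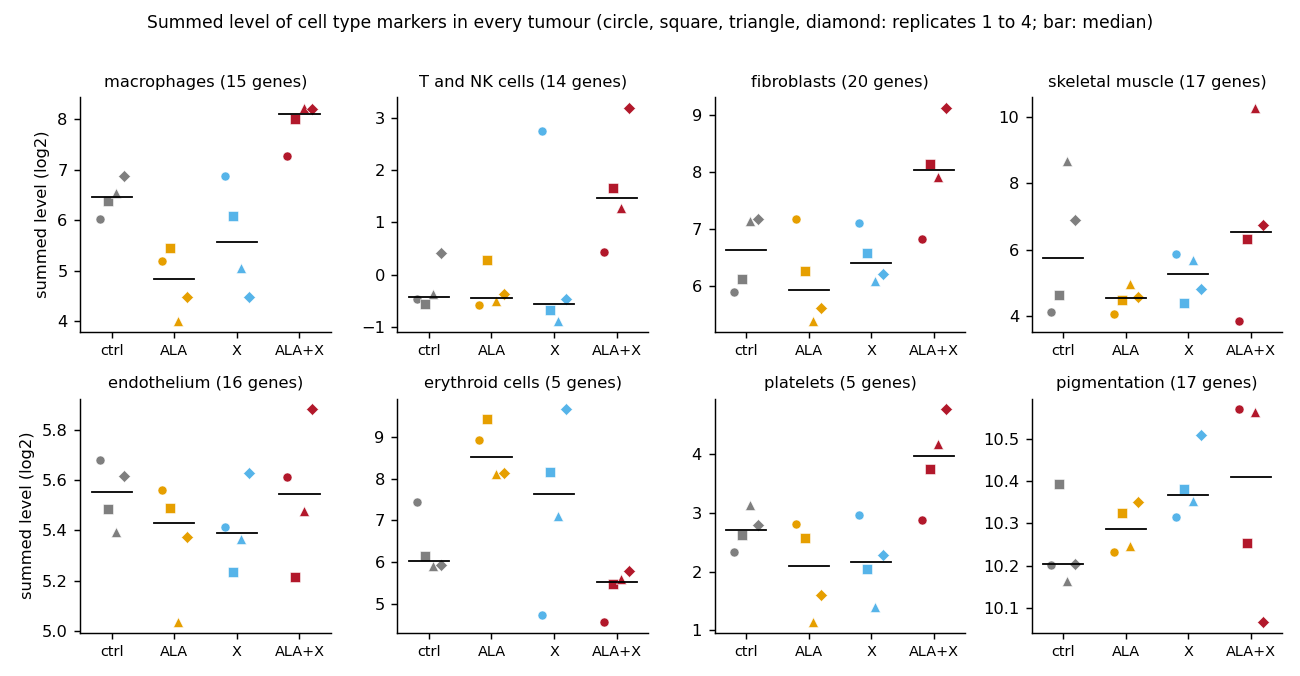
Summed level (log2 of the sum of linear relative levels) of 8 lists of cell type markers in the 4 tumours of each group, 1 symbol per tumour and a bar at the group median. The macrophage sum is highest in the 4 ALA plus X-ray tumours (7.27 to 8.23), the erythroid sum there (4.55 to 5.78) is below every control and ALA tumour, and the pigmentation sum spans 10.1 to 10.6 over all 16 tumours.

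Matrix genes of fibroblasts were high in 3 of the 4 irradiated tumours. Dcn, the proteoglycan decorin, was at 0.38, 0.62, -1.23 and -1.43 in ALA tumours and at 0.29, 4.46, 4.55 and 5.75 after ALA plus X-ray (18.1-fold, adjusted p = 0.0223), and tumour 1 lay within the ALA range. Col1a2, a chain of type I collagen, was at 4.49, 3.37, 2.13 and 2.16 in ALA tumours and at 4.10, 5.41, 5.10 and 6.84 after ALA plus X-ray (5.02-fold, adjusted p = 0.0189), with tumour 1 again within the ALA range. Neither gene passed without ALA tumour 3 or 4 or ALA plus X-ray tumour 4, and Dcn not without ALA plus X-ray tumours 2 or 3. Of 20 fibroblast and matrix genes 14 rose. The count was 3 with the 8 arrays alone, 2 without ALA tumour 3, 2 without ALA tumour 4, and 18, 3, 6 and 2 without ALA plus X-ray tumours 1 to 4. Mmp2, the gelatinase that degrades type IV collagen, rose 7.32-fold (adjusted p = 0.00391; 1.86 with normexp, log2). Of 17 skeletal muscle genes 0 passed, at a median of 3.58, and 11 passed without ALA plus X-ray tumour 1. Myh4, a myosin of fast fibres, was at -2.75, 4.75, 7.74 and 4.75 after ALA plus X-ray and at -5.57, 0.70, -6.30 and -1.41 in ALA tumours (adjusted p = 0.0806).

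The pigmentation sum was 10.2 to 10.4 in ALA tumours and 10.1 to 10.6 after ALA plus X-ray (exact permutation p = 0.543, two-sided). Of 17 pigmentation genes 2 rose, a share near the 10.7% of all genes, Gpnmb by 1.05 (adjusted p = 0.00201) and Tyrp1 by 0.39 (adjusted p = 0.0354; not passed when any 1 of the 4 ALA tumours was left out or without ALA plus X-ray tumour 3), where macrophages are also known to express Gpnmb. Tyr, the tyrosinase, was at 0.14, 0.32, 0.15 and 0.24 in ALA tumours and at 0.31, 0.37, 0.73 and 0.05 after ALA plus X-ray (0.15, 95% interval -0.27 to 0.58, adjusted p = 0.586). The markers Dct and Mlana of the labelled tissue were high on all 16 arrays, at 8.01 to 8.68 and 7.55 to 8.50.

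Of 5 red cell genes tested (10 in the list) 3 fell, and 5 with the 8 arrays alone. Hbb-bt, an adult beta globin, was at 8.12, 8.55, 7.54 and 7.49 in ALA tumours and at 3.93, 4.85, 5.04 and 5.09 after ALA plus X-ray (fell by 3.20 ± 0.75, adjusted p = 0.0104). Alas2, the erythroid form of the enzyme that makes ALA, was at 3.28, 4.02, 1.75 and 1.10 against -2.59, -1.13, -1.87 and -1.06 (18.4-fold lower, adjusted p = 0.0130; -3.45 with normexp, log2). Neither gene overlapped between the groups. Globin genes are close copies of each other and their probes can share signal. The erythroid sum was 8.13 to 9.45 in ALA tumours, 4.55 to 5.78 after ALA plus X-ray, 5.91 to 7.43 in control tumours and 4.71 to 9.68 in X-ray tumours, so the ALA group was the highest of the 4 on the median. Gp9, of the platelet receptor for von Willebrand factor, fell by 2.46 (adjusted p = 0.00127; -1.44 with normexp), while the platelet chemokine gene Pf4, which macrophages are also known to express, rose 5.24-fold (adjusted p = 0.00733).

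Of 24 genes of heme synthesis and handling tested 4 rose (16.7%) and 2 fell (8.33%), with a median of 0.00. These shares were near the 10.7% and 13.4% of all genes, so the list as a whole did not stand out. Alas2 of red cells was among the falls. The falls were 4 without ALA plus X-ray tumour 1. Alas1, the housekeeping ALA synthase that heme represses, was at 2.20, 3.07, 0.89 and 1.44 in ALA tumours and at 3.52, 3.32, 3.23 and 3.05 after ALA plus X-ray (2.60-fold, adjusted p = 0.0151), while control tumours were at 2.90 to 3.15. Alas1 did not pass with the 8 arrays alone (adjusted p = 0.066 by limma). The ALA plus X-ray tumours lay together near the control level, and 3 of the 4 ALA tumours lay below it. Abcg2, an exporter of porphyrins, was at -1.77, -1.74, -1.68 and -2.08 against -1.12, -0.93, 0.01 and 0.14 (2.54-fold, adjusted p = 0.0111), without overlap. Hebp1, a heme-binding protein, rose 1.78-fold (adjusted p = 0.00536). Fech, ferrochelatase (0.42, adjusted p = 0.180), and Hmox1, the heme oxygenase that stress induces (-0.59, adjusted p = 0.277), did not pass. Of 31 antioxidant genes 6 rose and 2 fell, where 10.7% and 13.4% of all genes did, the latter Gclc, of glutathione synthesis, by 0.83 (adjusted p = 0.00642) and Nqo1, a quinone reductase, by 0.70 (adjusted p = 0.0168), both known NRF2 targets. The rises were 2 with the 8 arrays alone, 2 and 3 without ALA tumours 3 and 4, and 3 and 2 without ALA plus X-ray tumours 2 and 3. The falls were 7 without ALA plus X-ray tumour 1, and Nqo1 did not pass with median scaling. Of 31 hypoxia and glycolysis genes 1 rose and 0 fell, while 0 rose and 7 fell without ALA tumour 2 (median -0.43) and 3 fell without ALA plus X-ray tumour 1.

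Of 31 apoptosis genes tested 10 rose (32.3%) and 3 fell (9.68%), where 10.7% and 13.4% of all genes did. The share that fell was thus not above that of all genes. Casp1, which activates interleukin 1 beta, rose 11.5-fold (adjusted p = 0.00469) and Casp4, the sensor of lipopolysaccharide, 2.76-fold (adjusted p = 0.0108). With normexp the difference of Casp1 was 1.96 (log2). Bcl2l1, which encodes the survival protein BCL-XL, rose 1.81-fold (adjusted p = 0.00551). Bax, the pore-forming effector and a p53 target, was chosen after its value was seen and did not pass (-0.08, adjusted p = 0.624). The count of rises was 5 with the 8 arrays alone, 6 and 5 without ALA tumours 1 and 4, and 6 and 6 without ALA plus X-ray tumours 3 and 4. The falls were 0 with the 8 arrays alone or median scaling, and 1 without ALA tumour 1 or 4 or without ALA plus X-ray tumour 2, 3 or 4.

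Some genes outside the lists fell sharply. The largest falls were named only from genes without overlap, so its absence among them was set in advance. Tenm4, a large adhesion protein of the teneurin family, was at 0.43, 0.94, 0.79 and 0.60 in ALA tumours and at -2.03, -2.68, -3.73 and -2.73 after ALA plus X-ray (fell by 3.48 ± 0.34, adjusted p = 0.000510, the smallest of all genes tested). Mecom, a zinc finger transcription factor, was at 1.84, 1.81, 1.71 and 1.91 against 0.04, -0.48, -0.43 and -0.66 (fell by 2.20, adjusted p = 0.000616). Tumour 1 was the least reduced of the ALA plus X-ray tumours for both genes, and still lay far below every ALA tumour. Phlda2, a placental growth restrictor that is imprinted, fell by 2.17 (adjusted p = 0.00208). With normexp the differences were -2.46 for Tenm4 and -1.07 for Phlda2.

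**Figure D3:**
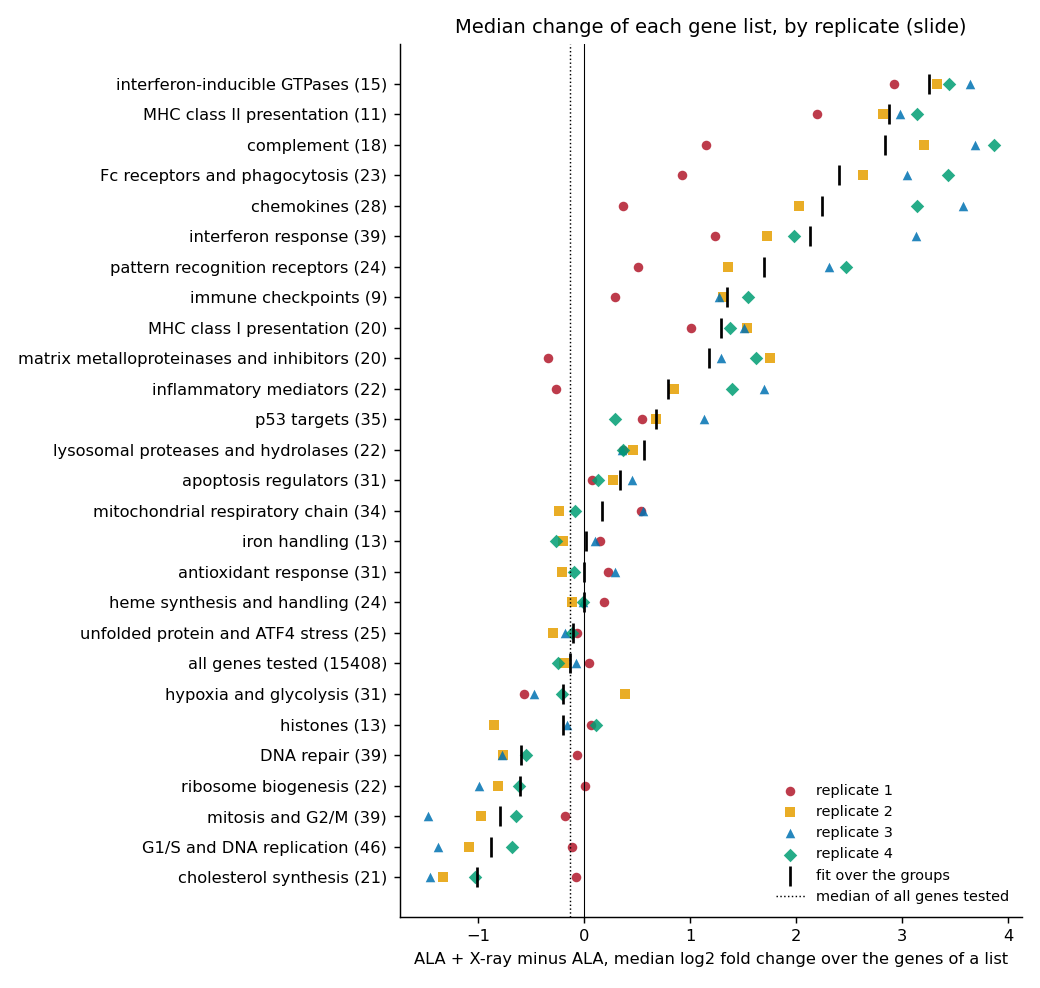
Median log2 fold change of ALA plus X-ray over ALA for each pathway list (cell type lists are not drawn), by replicate number (4 symbols) and in the fit (black bar), with the number of genes tested in brackets and the median of all genes tested as a dotted line at -0.13. The interferon, MHC, complement and Fc receptor lists lie above 1 in the fit and replication, mitosis and sterol synthesis lie lowest of the lists drawn, with replicate 1 nearest 0 in these last 3.

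The X-ray effects with and without ALA share no array and were compared in the same fit. X-rays alone changed 519 genes, 307 higher (1.99%) and 212 lower (1.38%). Of these 519, 279 (53.8%) also passed with ALA, where 10.7% of all genes tested passed higher and 13.4% lower. The 279 genes are 7.51% of the 3715, and 271 of the 279 had the same direction. Of the 519, whether passed with ALA or not, 448 had the same sign with ALA. Over all genes tested the log2 fold changes of both effects correlated at r = 0.076, a description across genes, which are not independent. The count for X-rays alone was 28 with median scaling. It was 158, 2, 242 and 5 without control tumours 1 to 4, and 1, 11, 836 and 5 without X-ray tumours 1 to 4.

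The test of the difference between both X-ray effects passed 190 genes, 125 of them at least 2-fold apart and higher with ALA. Of the 15 macrophage markers 9 passed it, all higher with ALA, with a median difference of 4.24. Adgre1 was at 0.69, 1.74, 1.80 and 2.14 in control tumours and at 1.73, 0.68, 0.06 and -1.89 after X-rays alone (-1.45, adjusted p = 0.259). Its X-ray effect with ALA exceeded that without by 5.78 (adjusted p = 0.0265). Tlr7 exceeded by 5.53 (adjusted p = 0.0136). Uox, urate oxidase, exceeded by 5.77 (adjusted p = 0.00680): it was not well above background on any ALA array, at least 6.15-fold higher after ALA plus X-ray, and at -5.77, -5.91, -6.48 and -5.62 after X-rays alone. With normexp the rise of Uox with ALA was 0.63 and that of Tlr7 1.25 (log2), both below their bounds. The differences of 5.77 and 5.53 were not held at bounds, and both genes were dim on every ALA array, so their sizes are uncertain. The Uox levels after X-rays alone lay below the lowest signals well above background on those arrays (-5.41 to -4.53). The interaction rests on both baselines, since macrophage markers were lower in ALA than in control tumours by a median of 1.72 (log2), although 0 genes passed in ALA against control by limma (963 at an unadjusted p under 0.05). The median of ALA against control was -1.10 for complement, -0.69 for Fc receptor and -0.65 for class II genes. For the interferon list and the GTPases it was -0.10 and 0.07. The folds over ALA tumours rest on the same baseline, and its part in them was not tested.

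Among genes whose X-ray effect was lower with ALA than without, Ptpn9, a phosphatase of secretory vesicles, fell by 0.59 with ALA (interaction -0.97, adjusted p = 0.0265). Its fall with ALA did not pass with median scaling.

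The interaction count moved with single arrays and with the block. With the slide, which carries the replicate number, as a block 8 genes passed. Leaving out 1 array moved the count: to 138, 4, 1 and 3 without control tumours 1 to 4, to 41, 401, 14 and 1 without ALA tumours 1 to 4, to 765, 12, 46 and 9 without X-ray tumours 1 to 4, and to 1066, 1, 1 and 4 without ALA plus X-ray tumours 1 to 4. X-ray tumour 1 stood apart from the other X-ray tumours. Its summed interferon level was 9.02, against 7.36, 6.98 and 7.05, and above the 7.80 to 8.63 of the ALA plus X-ray tumours. For the interferon list 0 of 39 genes passed the interaction, at a median difference of 1.04, and a p that misses the threshold does not show that both responses were alike.

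**Figure D4:**
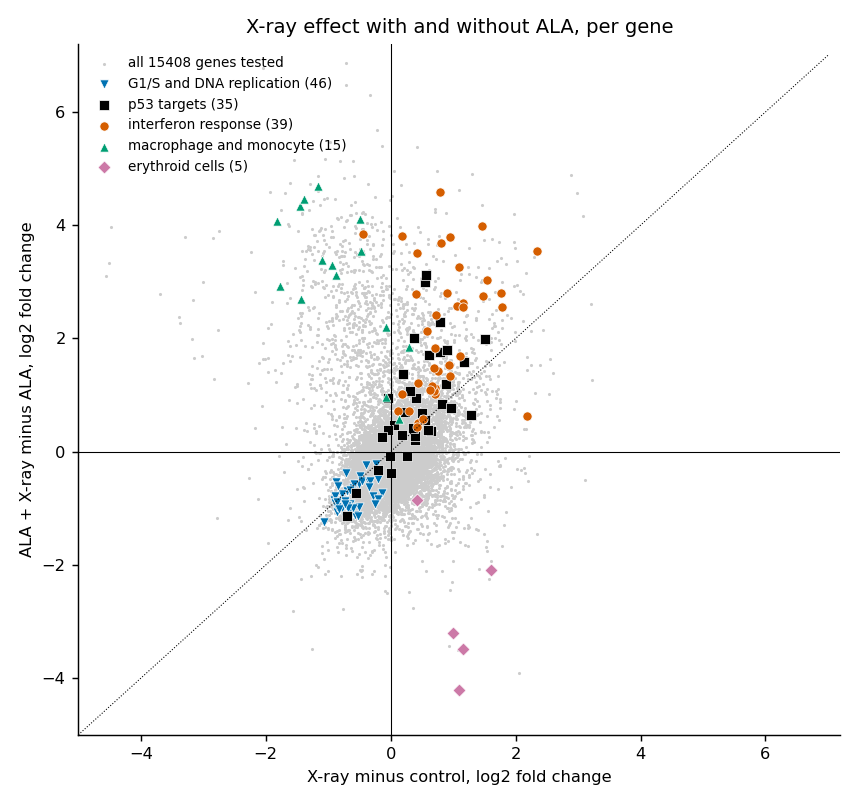
Log2 fold change of each gene for ALA plus X-ray over ALA (vertical) against X-ray over control (horizontal), with all 15408 genes tested in grey and 5 gene lists marked; the dotted line is equality. Replication genes lie below 0 on both axes, p53 targets mostly above 0 on both, macrophage genes high on the vertical axis and mostly below 0 on the horizontal one, and erythroid genes low on the vertical axis only.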

How the data were processed

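Total RNA of 16 tumours, 4 in each of 4 groups, was labelled with Cy3 and read on 1-colour Agilent mouse arrays. Per the file headers, the authors extracted spot intensity values with Agilent Feature Extraction 10.7.3.1 (the submitters' processing notes name 9.5.3.1), which subtracted background and detrended each array. The deposited value table holds the authors' intensity values with the same quantiles in every column, and was used as an alternative. Other quality flags per spot, 0 or 1 per the file headers, marked spots well above background and outlier spots.

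The log2 of the processed intensity minus the array's 75th percentile was taken over the 43379 spots other than control spots. Spots flagged as outliers were left out, and the other spots of a probe were averaged. A probe was used if 4 or more of the 16 arrays read it well above background, and each gene was represented by its brightest probe. limma 3.58.1 in R 4.3.3 was fitted on the 4 group means of all 16 arrays (12 residual degrees of freedom) with Benjamini-Hochberg adjustment over 15408 genes, at a threshold of 0.05. The code was first run on simulated data with 200 genes changed, independent genes and the same spread in every group. The spread of the real groups was unequal, so that run does not show how well the fit holds for these data. A dim gene, not well above background on any array of a group, was given as a lower bound: the bright group's mean over the mean of, per array, the higher of the lowest signal well above background and the gene's own. Summed marker levels were compared by exact two-sided permutation tests. Intervals are 95%. The number of arrays limits the precision.

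Each slide held 1 array of each group and carried the replicate number. Deviations of same-numbered ALA and ALA plus X-ray arrays from their group means correlated between -0.099 and 0.048 over all genes tested. Other pairs of these arrays correlated between -0.253 and 0.185, so the same number gave no sign of pairing over all genes. Whether the slide moved single genes was not tested. With the slide as a block 4100 genes passed in place of 3715.

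Gene lists, the rule for named genes and the comparison itself were chosen with earlier results of these data known. Named were the 15 largest rises and falls without overlap, up to 6 genes of smallest p per direction of each list, 18 genes fixed by name and 5 interaction genes per direction, of which the text gives a selection. The 8 genes Bax, Cdc20, Dct, Isg15, Mcm5, Mcm6, Mlana and Rsad2 lie outside the rule and were chosen after their values were seen. Promoter windows were taken from RefSeq. Some genes are not reported here.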

Additional observations from a re-analysis of the deposited data

Results flagged for a closer look

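Among the genes named above, 1 ALA plus X-ray tumour stood far from the other 3 in 10 cases, by the gap to its nearest neighbour as a share of the group's range, out of 200 groups of 4 that were checked, where chance gives about 1 in 20. Tumour 1 was the lowest for Adgre1 (gap 0.843 of the range, level 1.67), Ctss (0.874, level 5.50), Fgl2 (0.901, level -2.05), H2-K1 (0.866, level 4.07), Icam1 (0.913, level -0.92), Il1b (0.92, level -5.35) and Trem2 (0.873, level 2.49). It was the highest for the amino acid synthesis genes Asns (0.904, level 5.17) and Phgdh (0.892, level 5.69). Tumour 3 was the highest for Eda2r (0.836, level -1.52). For the summed level of B and plasma cell markers tumour 1 was again the lowest (0.921), and for keratinocyte markers ALA tumour 2 was the lowest of its group (0.834).

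The X-ray effect differed with and without ALA, by the interaction test of limma, for 14 of the named genes. The difference, ALA setting minus the setting without ALA on the log2 scale, was 5.78 for Adgre1 and 5.85 for C1qa (adjusted p 0.0265 and 0.0267), 5.58 for Ctss and 4.93 for Trem2 (both 0.0265), and 2.28 for Cd68 (0.0328). It was 5.53 for Tlr7 (0.0136), 4.26 for Casp1 (0.0458), 6.63 for Ccl8 (0.0493), 5.5 for Vcam1 (0.0419), 5.46 for Wfdc17 (0.0290) and 5.77 for Uox (0.00680). It was negative for Gp9 (-2.37, 0.0290), Tenm4 (-2.21, 0.0437) and Ptpn9 (-0.97, 0.0265). Tlr7 and Uox were dim on every ALA array, and their differences were not held at bounds. The adjusted values over all genes depend on single arrays, as the counts without each array show.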

How the results depend on the processing

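The 3715 genes of ALA plus X-ray against ALA became 1590 with the 8 arrays alone, 1898 with median scaling, 6443 with array weights and 2164 to 5821 with 1 array left out. Quantile normalization, normexp, the authors' value table, no filter on dim probes, a filter on all 16 arrays, trended and robust moderation and all probes gave 2572 to 5030. For X-ray against control the 519 genes became 28 with median scaling, 3 with no filter, 2957 with array weights and 1 to 836 with 1 array left out. For the interaction the 190 genes became 40 with no filter, 2022 with array weights and 1 to 1066 with 1 array left out. With the replicate number (the slide) as a block, the interaction gave 8 genes, ALA plus X-ray against ALA 4100 and X-ray against control 489. ALA against control gave 0 to 1 genes with 1 array left out. The cause of these moves was not tested. Fits with arrays left out or 8 arrays alone had fewer samples. They also changed which tumours gave the spread, which the main fit pooled over all 4 groups. Within groups the median SD was largest after the combined treatment (0.334). It was 0.194 for controls, 0.215 with ALA alone and 0.245 with X-rays alone. With 8 arrays alone the control and X-ray tumours no longer entered the spread. The part of sample number or of spread in these moves was not tested. Of 89 named genes that passed, 13 no longer passed with the 8 arrays alone, 11 with median scaling, 4 with no filter, 3 with normexp, 1 with array weights and 12 when 1 array was left out. None of the 89 changed sign under these settings. Dim probes are limited by background, and normexp made the fold over 1.5 times smaller for 28 of the 89.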
